A study of Mus musculus with 4 samples.

Results

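Smchd1, 6 genes of the structural maintenance of chromosomes (SMC) family (Smc1a, Smc2, Smc3, Smc4, Smc5 and Smc6) and 3 genes that work with them (Rad21, Nipbl and Ctcf) were followed by RNA sequencing in cultured female mouse neural stem cells with and without deletion of Smchd1. The 10 genes were taken by symbol from the deposited table of 25965 entries, where each has 1 entry. All 10 were among the 14860 genes with enough counts to be tested.

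The cells compared were Smchd1 del/del cells, which had received a Cre and puromycin-resistance retrovirus (MSCV-Cre-puro), were selected with puromycin from 24 h after transduction and were harvested 7 days after it, and Smchd1 del/fl cells, the untransduced remainder of the same lines. Both groups therefore carried 1 deleted Smchd1 allele, and they differed in the other, which was floxed in the del/fl cells. Both also carried an Xist deltaA allele on the maternal X, of 129 origin, and a wild-type Xist on the paternal X, of Castaneus (Cast) origin, in a C57BL/6, 129 and Castaneus mixed background. Lines were derived from E14.5 embryos. The libraries analysed were 2 per genotype, 1 of each genotype from each of 2 lines, called A and B. Deletion cannot be told apart from transduction and puromycin selection in this design, and 2 lines measure the spread of these cultures only.

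Smchd1 encodes a noncanonical SMC protein, with the SMC hinge domain at one end and an ATPase domain of the GHKL kind at the other. It associates with the inactive X chromosome and helps to keep it silent. The canonical SMC proteins act as heterodimers in ring-shaped complexes that fold and tether DNA: SMC1A and SMC3 form cohesin with the kleisin RAD21, SMC2 and SMC4 form condensin, and SMC5 and SMC6 form a complex used in DNA repair and replication. NIPBL loads cohesin onto chromatin and drives its loop extrusion, and CTCF is the DNA-binding protein at which cohesin loops halt. Whether loss of Smchd1 RNA came with changes in the RNA of these related proteins is the question the comparison answers.

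Total counts were 33572648 and 31823877 in del/del libraries A and B and 29873400 and 34018500 in del/fl libraries A and B. Neural stem cell markers were abundant, with summed levels of 9936 and 8871 CPM, the count scaled to a library of fixed size, in del/del libraries against 9567 and 8809 CPM in del/fl libraries. The 7 neuron markers matched by symbol summed to 31.6 to 35.7 CPM in del/del libraries against 27.3 to 30.2 CPM in del/fl libraries. Map2, entered under its older symbol Mtap2, was left out of this sum. It averaged 9.74 in log2 CPM over the libraries, far above that sum. Its log2 fold change was 0.03 in edgeR with the line as a block. Microglia markers summed to 10.8 to 11.3 CPM in del/del libraries against 10.4 to 11.2 CPM in del/fl libraries, with the defining genes Cx3cr1 and Tmem119 at 0 in all 4. Mesenchyme markers summed to 14.3 and 29.3 CPM in del/del libraries against 39.5 and 21.3 CPM in del/fl libraries, with Dcn at 0. Oligodendrocyte lineage markers summed to 2587 and 2500 CPM in del/del libraries against 2888 and 2504 CPM in del/fl libraries. Astrocyte markers moved with genotype, at 992.7 and 910.3 CPM in del/del libraries against 568.2 and 572.5 CPM in del/fl libraries. All 8 of them were higher in del/del cells of both lines, and Gfap, Aqp4, S100b, Aldh1l1 and Gja1 passed the adjusted threshold of 0.05 in edgeR with the line as a block, where 3.71% of all tested genes were called higher, and none without it. Their blocked log2 fold changes ran from 0.62 for Aldh1l1 to 2.64 for S100b. Slc1a3, a glial glutamate transporter gene among the stem cell markers, was also higher with the block, by 0.96 on the log2 scale. It stood apart from its list, whose 10 genes had a median blocked log2 fold change of -0.10. In both lines 4 of the 10 were negative and 3 positive, where 5412 of all 14860 tested genes were negative and 5657 positive. In the blocked fit 4 of the 10 were positive, among them Pax6, named after its value was seen, at 0.24. Notch1 was at -0.55 (SE 0.15, adjusted p = 0.086 by edgeR), Nes at -0.48 (SE 0.09, adjusted p = 0.054) and Vim at -0.28 (SE 0.12, adjusted p = 0.179), named after their values were seen. DESeq2 with the block called Nes lower (adjusted p = 0.000359). The part of these cells in the results below was not tested. In bulk RNA, fewer cells of a type and less RNA per cell cannot be told apart.

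Smchd1 RNA was far lower in del/del cells of both lines, and it was the gene with the lowest p of all genes tested in both edgeR fits. It was counted 785 and 852 times in del/del libraries A and B, against 2779 and 3461 times in del/fl libraries A and B. Scaled for library size, these counts were 23.4 and 26.6 CPM in del/del libraries against 93.5 and 101.5 CPM in del/fl libraries. Both del/del libraries lay far below both del/fl libraries, with no overlap, and the mean was 25.0 ± 2.25 CPM in del/del cells against 97.5 ± 5.66 CPM in del/fl cells (SD, n = 2 each). Residual Smchd1 RNA in del/del cells was 25.1% of the del/fl level in line A and 26.2% in line B, so the lines differed little in how much was left. With genotype as the only term the log2 fold change was -1.96 (SE 0.12), and its adjusted p by edgeR's quasi-likelihood test was 0.341. With the line as a block, since the 2 libraries of a line are parts of the same culture, it was -1.96 (SE 0.07, 95% interval -2.15 to -1.78, edgeR adjusted p = 0.0194). The call of a fall thus rests on the block in edgeR. DESeq2 called it without the block (adjusted p = 5.754e-28) and with it (adjusted p = 6.526e-37). Among the 10658 genes averaging 3 or more in log2 CPM in the blocked fit, 4 had a more negative blocked log2 fold change.

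The Smchd1 gene lies on the minus strand at chr17:71344489-71475343 (mm10), and its longest protein-coding transcript in the annotation has 48 exons and 7052 bases. The labels do not name the exons removed by Cre, and the deposited count is for the whole gene. Transcripts of a deleted allele and transcripts of cells that kept the floxed allele therefore cannot be told apart in the residual counts.

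The start regions of Smchd1 and Smc2 are shown because both genes were without overlap between the groups, Smchd1 lower and Smc2 higher in del/del cells, although Smc2 did not pass the test. Rad21, also higher without overlap, had no start region among the promoters used and is not shown. Each window runs from 250 bases before to 50 bases from the annotated start (RefSeq, GRCm38.p6), for Smchd1 on the minus strand at chr17:71475294-71475593 and for Smc2 on the plus strand at chr4:52438971-52439270. Capitals mark matches, on either strand, to motifs known from promoters of cell cycle genes: the cell cycle homology element TTTGAA, the CCAAT box, and the E2F sites TTTCCCGC, TTTGGCGC and TTTCGCGC. No matches overlapped.
Smchd1: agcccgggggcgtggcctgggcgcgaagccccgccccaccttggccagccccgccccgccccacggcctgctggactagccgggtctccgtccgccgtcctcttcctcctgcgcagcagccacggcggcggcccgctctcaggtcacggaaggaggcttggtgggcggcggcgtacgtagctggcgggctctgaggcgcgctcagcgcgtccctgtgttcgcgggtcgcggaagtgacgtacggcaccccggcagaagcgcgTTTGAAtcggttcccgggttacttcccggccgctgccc
Smc2: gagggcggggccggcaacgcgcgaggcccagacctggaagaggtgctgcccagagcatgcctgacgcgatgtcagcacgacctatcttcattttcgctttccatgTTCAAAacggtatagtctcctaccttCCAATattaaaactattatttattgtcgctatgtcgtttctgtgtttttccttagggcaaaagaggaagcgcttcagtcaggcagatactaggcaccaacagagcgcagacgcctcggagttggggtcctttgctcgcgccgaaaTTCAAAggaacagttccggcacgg
The Smchd1 window had a GC content of 74% and 40 CG dinucleotides, against 52.7% and 21 in the Smc2 window and a median GC content of 52.7% over 32851 promoters. It held 1 TTTGAA, 12 bases after the start. The Smc2 window held TTTGAA on the reverse strand 145 bases before and 26 bases after the start, and CCAAT 119 bases before it. Of the 7 genes with a window in the table, Smc6 and Ctcf also had a TTTGAA, Smc1a had a CCAAT and a TTTCCCGC, and Smc3 and Smc5 had no match. The Smc5 window (chr19:23272550-23272849, minus strand) lies inside the gene entry, which runs to 23273897, and so is not at its outermost start. TTTGAA occurred in 17.9% of all promoters, CCAAT in 37.4%, TTTCCCGC in 1.07%, TTTGGCGC in 0.514% and TTTCGCGC in 0.323%, and the matches are a description of these letters only.

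**Figure D1:**
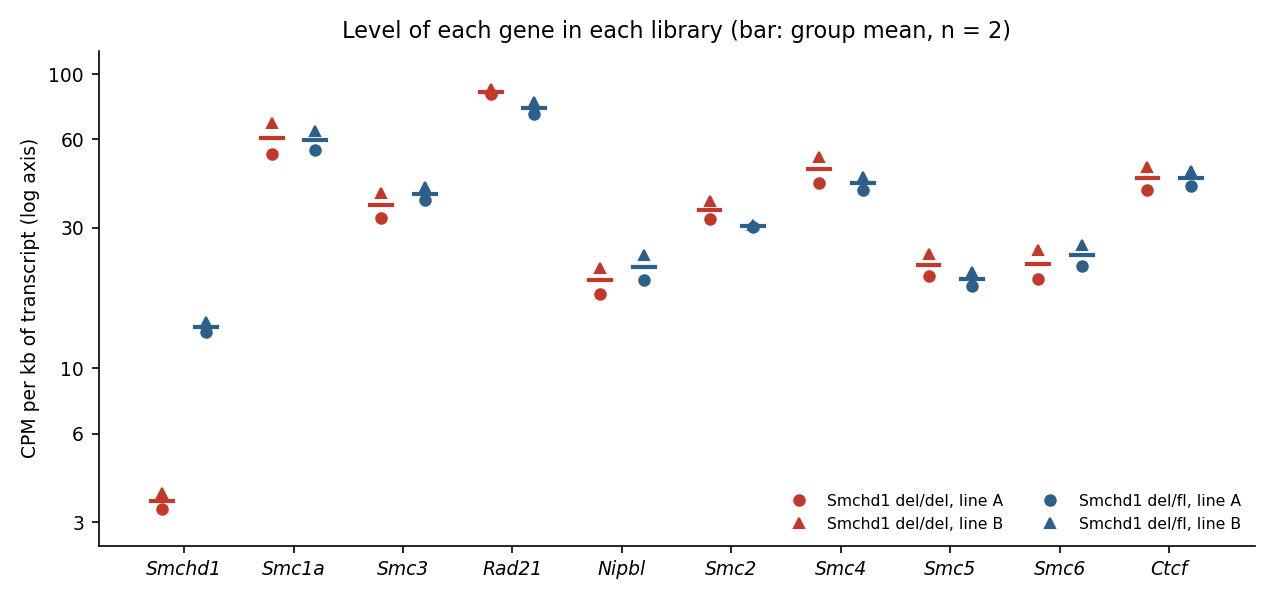
Level of each of the 10 genes in each library, in CPM per kb of transcript on a log axis, with del/del libraries left of del/fl libraries for each gene. Smchd1 lies at 3.32 and 3.78 in del/del libraries against 13.3 and 14.4 in del/fl libraries, while the points of the other 9 genes lie close together.

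In CPM per kb of the longest protein-coding transcript, Rad21 was the most abundant of the 10 genes and Smchd1 the least in both genotypes. Rad21 reached 87.2 ± 2.25 CPM per kb in del/del cells and 76.6 ± 5.07 in del/fl cells (SD, n = 2 each, as for all levels here), above every other gene in every library of its group. Smc1a followed at 60.7 ± 10.2 in del/del cells and 59.6 ± 6.21 in del/fl cells. Smc4 was at 47.4 ± 6.91 in del/del cells and 42.5 ± 3.13 in del/fl cells, and Ctcf at 44.4 ± 5.50 in del/del cells and 44.3 ± 3.51 in del/fl cells. These 2 genes overlapped across lines in both genotypes. Within each line Smc4 was above Ctcf in del/del cells and below it in del/fl cells. Smc3 was at 36.0 ± 4.91 in del/del cells and 39.2 ± 2.75 in del/fl cells, overlapping Smc2 in del/del cells and Smc4 in del/fl cells. Within each line it was above Smc2 in del/del cells and below Smc4 in del/fl cells. Smc2 was at 34.6 ± 3.40 in del/del cells and 30.5 ± 0.394 in del/fl cells. The lowest above Smchd1 were Smc6 at 22.7 ± 3.65 in del/del cells and 24.2 ± 2.72 in del/fl cells, Smc5 at 22.5 ± 2.77 in del/del cells and 20.2 ± 1.50 in del/fl cells, and Nipbl at 20.0 ± 2.86 in del/del cells and 22.2 ± 3.07 in del/fl cells. In del/del cells these 3 overlapped across lines. Within each line Nipbl was below Smc5 and Smc6, whose own order changed between the lines. In del/fl cells Nipbl overlapped both others, but Smc6 (22.3 and 26.2) lay above Smc5 (19.1 and 21.2) without overlap. Nipbl lay between them within each line. Smchd1 was at 3.55 ± 0.319 in del/del cells and 13.8 ± 0.803 in del/fl cells, below all others in every library. The transcript length is an assumption, since the way reads were counted is not stated in the labels.

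Of the 9 genes other than Smchd1, none passed the adjusted p of 0.05 with or without the line as a block, in edgeR or DESeq2. Counted over all 10, 1 gene was called with the block (Smchd1, lower), where 5.6% of all tested genes were called, 3.71% higher and 1.89% lower. Without the block 0 of 10 were called in edgeR, where 0% of all genes were (1019 genes were higher, and 718 genes lower, by unadjusted p under 0.05). DESeq2 called Smchd1 alone of the 10 in each of its fits, against 2.54% of all genes without the block and 8.07% with it. The groups did not overlap in CPM for 3 of the 10, Smchd1 lower and Smc2 and Rad21 higher in del/del cells, where 45.7% of all tested genes did not overlap. The count of 3 in 10 is not above that share, and with so few genes it is not read as a result. The median absolute log2 fold change of the 10658 deeper genes was 0.16, and the 9 genes other than Smchd1 lay between -0.15 and 0.19.

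The cohesin ring genes showed small differences that did not pass the test. Rad21, the kleisin that closes the ring (chr15:51962605-51991760), was at 338.7 and 351.3 CPM in del/del libraries A and B against 289.0 and 317.4 CPM in del/fl libraries A and B, with both del/del libraries higher. Its blocked log2 fold change was 0.19 (SE 0.07, 95% interval 0.01 to 0.37), with an unadjusted p of 0.0429 and an edgeR adjusted p of 0.151 (0.515 without the block). Smc1a, the X-linked cohesin ATPase subunit (chrX:152016428-152062694), was at 250.8 and 318.7 CPM in del/del libraries against 258.9 and 300.1 CPM in del/fl libraries. The groups overlapped and the lines went opposite ways, and the blocked log2 fold change was 0.02 (SE 0.07, 95% interval -0.17 to 0.21, edgeR adjusted p = 0.872). Smc3, its partner (chr19:53600398-53645833), was at 157.8 and 191.5 CPM in del/del libraries against 180.9 and 199.8 CPM in del/fl libraries. These values overlapped, and the blocked log2 fold change was -0.13 (SE 0.07, 95% interval -0.32 to 0.06, edgeR adjusted p = 0.284).

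Nipbl, the cohesin loader (chr15:8291225-8444463), was at 169.2 and 207.3 CPM in del/del libraries against 188.4 and 229.3 CPM in del/fl libraries. The groups overlapped across lines but each del/del library was below the del/fl library of its line by nearly the same amount, -0.16 in A and -0.15 in B on the log2 scale. The blocked log2 fold change of Nipbl was -0.15 (SE 0.06, 95% interval -0.32 to 0.02, edgeR adjusted p = 0.196). Ctcf, the loop boundary factor (chr8:105636568-105682922), was at 153.2 and 182.6 CPM in del/del libraries against 158.0 and 176.8 CPM in del/fl libraries, with the lines on opposite sides of 0. Its blocked log2 fold change was 0.00 (SE 0.07, edgeR adjusted p = 0.994), and the 95% interval of its fold, 0.886 to 1.13, excludes a fall as large as that of Smchd1. Ctcf shares 114 exonic bases with Agrp on the other strand, and Agrp had 18 counts in all 4 libraries together.

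The condensin ATPase genes were slightly higher in del/del cells of both lines, short of the threshold. Smc2 (chr4:52439243-52488260) was at 174.0 and 200.0 CPM in del/del libraries against 163.3 and 166.3 CPM in del/fl libraries, without overlap. Its blocked log2 fold change was 0.18 (SE 0.08, 95% interval -0.02 to 0.38, edgeR adjusted p = 0.190). Its partner Smc4 (chr3:69004738-69034623) was at 183.7 and 225.8 CPM in del/del libraries against 173.8 and 193.0 CPM in del/fl libraries. The groups overlapped, and the blocked log2 fold change was 0.15 (SE 0.07, 95% interval -0.04 to 0.34, edgeR adjusted p = 0.228).

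The genes of the SMC5/6 heterodimer had opposite signs. Smc5 (chr19:23206441-23273897) was at 116.7 and 139.0 CPM in del/del libraries against 108.6 and 120.6 CPM in del/fl libraries, with a blocked log2 fold change of 0.15 (SE 0.07, 95% interval -0.02 to 0.33, edgeR adjusted p = 0.205). Smc6 (chr12:11265886-11319785) was at 112.6 and 141.5 CPM in del/del libraries against 125.0 and 146.6 CPM in del/fl libraries, with a blocked log2 fold change of -0.10 (SE 0.07, 95% interval -0.28 to 0.08, edgeR adjusted p = 0.367). Both genes overlapped between the groups. For all 9 genes other than Smchd1 the 95% intervals of the blocked fold lay within 0.802 and 1.30, so changes of this size are not excluded by these data.

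**Figure D2:**
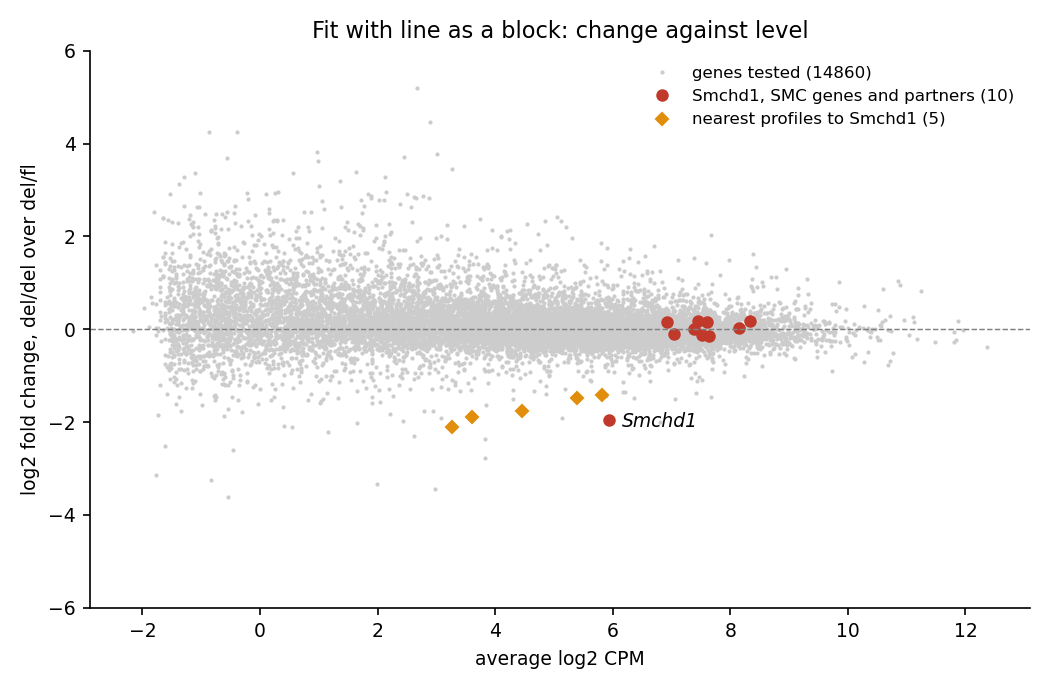
Log2 fold change (del/del over del/fl, vertical axis) of each of the 14860 genes tested against its average log2 CPM (horizontal axis), from the edgeR fit with the line as a block. The 10 genes are marked, and Smchd1 lies at -1.96 while the other 9 lie within the band of all genes, between -0.15 and 0.19.

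**Figure D3:**
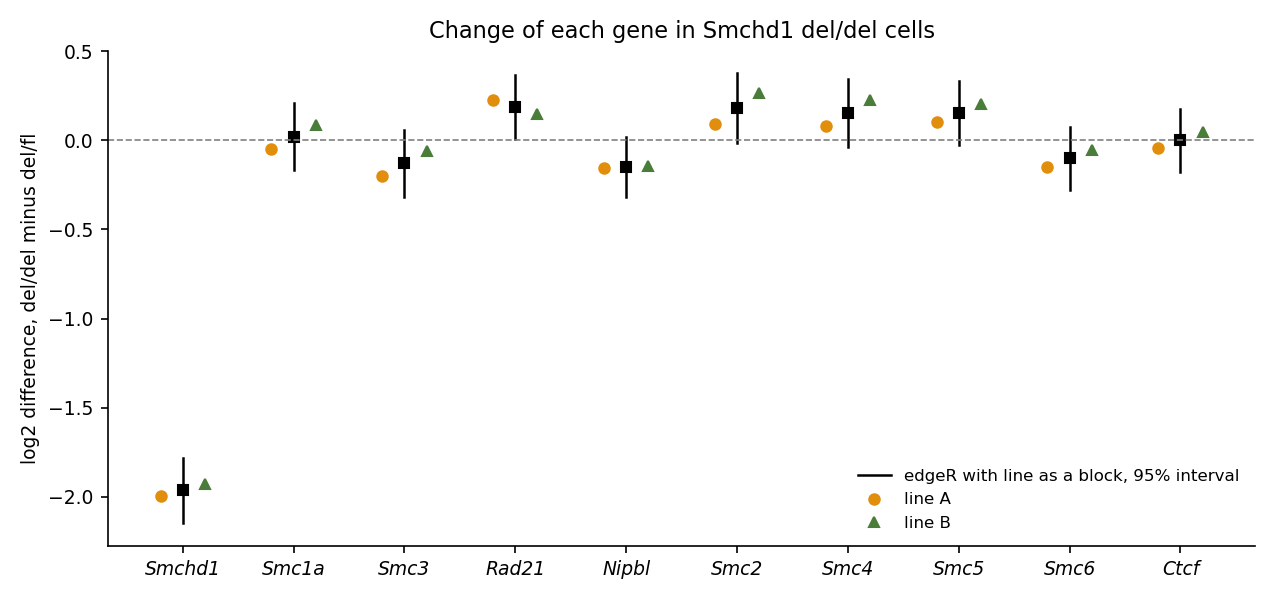
Log2 fold change (del/del over del/fl) of the 10 genes from the edgeR fit with the line as a block, with bars for the 95% interval and separate symbols for lines A and B. Smchd1 is at -1.96, and the other 9 lie between -0.15 and 0.19, all but Rad21 with an interval that includes 0.

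Partner genes were also compared within each library as the ratio of their levels per kb, for 5 pairs chosen after their values had been seen. The Smc5 to Smc6 ratio was 1.02 and 0.969 in del/del libraries A and B against 0.856 and 0.811 in del/fl libraries A and B, a log2 difference of 0.26 in each line. The ratio was higher in both del/del libraries than in both del/fl libraries. The Smc1a to Smc3 ratio was 1.64 and 1.72 in del/del libraries against 1.48 and 1.55 in del/fl libraries, and the Rad21 to Smc3 ratio was 2.63 and 2.25 in del/del libraries against 1.96 and 1.95 in del/fl libraries. The Nipbl to Rad21 ratio was 0.210 and 0.248 in del/del libraries against 0.274 and 0.303 in del/fl libraries. These 4 ratios did not overlap between the groups, where 45.7% of all single genes tested did not overlap. The share over ratios of other gene pairs was not computed, so the count of 4 is not read as a result. The Smc2 to Smc4 ratio overlapped, at 0.757 and 0.707 in del/del libraries against 0.750 and 0.688 in del/fl libraries. Each of the 5 ratios differed with the same sign in both lines, that of Smc2 to Smc4 by 0.01 in line A and 0.04 in line B on the log2 scale. Of all 14860 single genes tested, 5657 were positive and 5412 negative in both lines. Some of the ratios share Smc3 or Rad21, so the 5 are not separate observations. With 2 libraries per group an exact two-sided permutation test, which ignores the pairing of lines, cannot go below 0.333, which was its p for the 4 ratios (adjusted over the 5 ratios, 0.417), and it gave 0.667 for Smc2 to Smc4.

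The other genes of each complex were taken from lists chosen by function, and none of them passed the threshold in either edgeR fit. Over all 14860 genes, 51.7% had a positive blocked log2 fold change, the median was 0.01, and 38.1% were positive in both lines. Of 8 tested cohesin subunits 5 were positive, with a median of 0.10. Stag2 encodes one of the mitotic STAG subunits and is X-linked. It was counted 8511 and 9382 times in del/del libraries A and B against 7268 and 10663 in del/fl libraries A and B. Its blocked log2 fold change was -0.02 (SE 0.07). The meiotic subunits had the highest values, and are named after their values were seen. Smc1b had 29 and 23 counts in del/del libraries against 12 and 10 in del/fl libraries, with a blocked log2 fold change of 1.18 (SE 0.36, edgeR adjusted p = 0.111). Rec8, the meiotic kleisin, had 797 and 59 counts in del/del libraries against 455 and 42 in del/fl libraries, with a blocked log2 fold change of 0.62 (SE 0.15, adjusted p = 0.075 by edgeR). The difference in Rec8 between lines was far larger than that between genotypes.

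Of 13 genes for cohesin loading, release and protection, 8 were positive and the median blocked log2 fold change was 0.14. At an unadjusted p under 0.05, 5 were higher and 2 lower, where 17.2% of all genes were higher and 13.6% lower. Pds5b, a cohesin regulator, had 5778 and 6237 counts in del/del libraries A and B against 5000 and 6623 in del/fl libraries A and B, with a blocked log2 fold change of 0.02 (SE 0.07). The extremes, named after their values were seen, were Hdac8, the SMC3 deacetylase, at 0.45 (SE 0.10, adjusted p = 0.071 by edgeR) and Pds5a, the paralog of Pds5b, at -0.35 (SE 0.09, edgeR adjusted p = 0.076). Hdac8, an X-linked gene, had 738 and 773 counts in del/del libraries against 491 and 587 in del/fl libraries. Pds5a had 3910 and 4481 counts in del/del libraries against 4812 and 5598 in del/fl libraries.

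All 8 condensin subunits had a positive blocked log2 fold change, 7 of them in both lines, with a median of 0.20 (0.09 in line A and 0.26 in line B), and 3 were higher at an unadjusted p under 0.05. The exception in line A, Ncaph2, named after its value was seen, was practically unchanged. Its blocked value was 0.000514, with -0.03 in line A and 0.03 in line B. The nearest to the threshold, named after its value was seen, was Ncapd2, a HEAT-repeat subunit of condensin I, with 5421 and 6175 counts in del/del libraries A and B against 3820 and 5240 in del/fl libraries A and B. Its blocked log2 fold change was 0.33 (SE 0.06, edgeR adjusted p = 0.056). Genes of G2 and M phase had values of the same sign. All 14 of those were positive, 11 in both lines, with a median of 0.28 (0.17 in line A and 0.34 in line B), and 10 were higher at an unadjusted p under 0.05. None passed the adjusted threshold in either edgeR fit. Beside both lists, 51.7% of all tested genes were positive, 38.1% were positive in both lines and 17.2% were higher at that unadjusted p. DESeq2 called Top2a without the block (adjusted p = 0.0287) and called Top2a (0.00311) and Mki67 (0.0233) with it. Top2a, the mitotic topoisomerase, had 15639 and 16438 counts in del/del libraries against 10935 and 12087 in del/fl libraries (blocked log2 fold change 0.44, SE 0.08, adjusted p = 0.052 by edgeR), and the proliferation marker Mki67 had 14280 and 16068 in del/del libraries against 10624 and 12165 in del/fl libraries (blocked log2 fold change 0.37, SE 0.09, adjusted p = 0.071 by edgeR). The summed level of the 14 genes was 1924 and 2031 CPM in del/del libraries against 1659 and 1527 CPM in del/fl libraries. The 12 S phase genes summed to 1509 and 1736 CPM in del/del libraries against 1461 and 1380 CPM in del/fl libraries, and 10 of them were positive, with a median of 0.14. Rrm1 and Rrm2, the subunits of ribonucleotide reductase, were at 0.32 (SE 0.08) and 0.30 (SE 0.11) in blocked log2 fold change, both short of the threshold. The part of cell cycle composition in the condensin values was not tested.

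**Figure D4:**
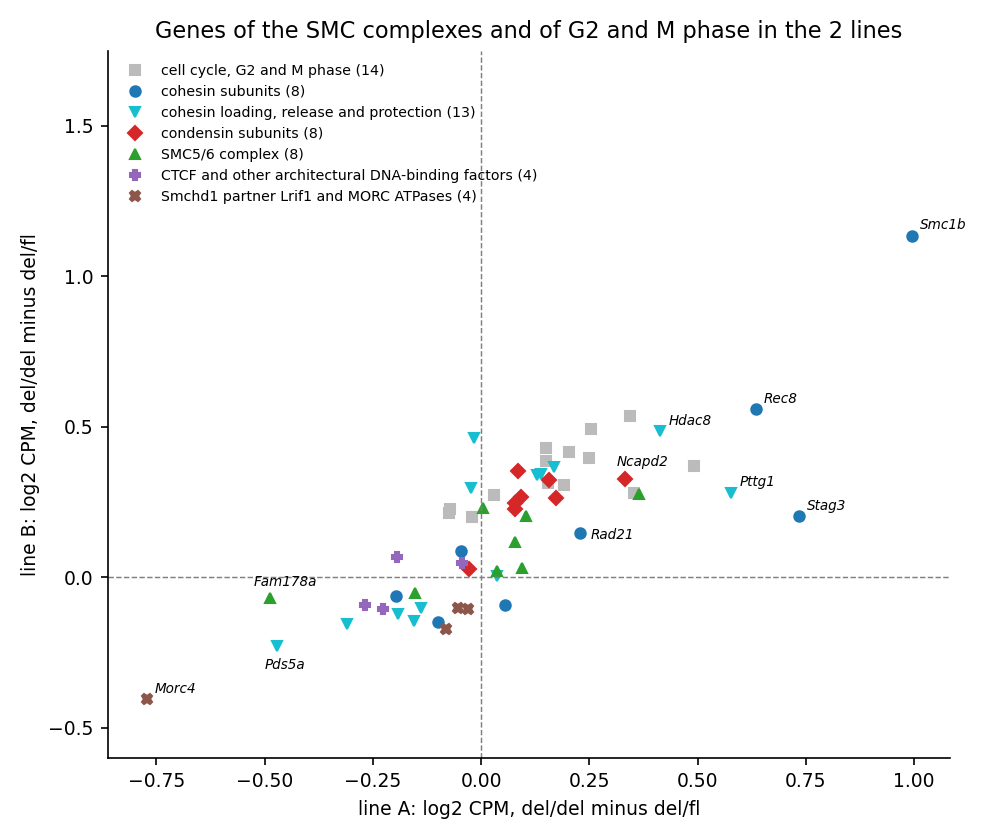
Log2 CPM difference (del/del minus del/fl) in line A (horizontal axis) and line B (vertical axis) for genes of the SMC complexes, architectural factors, Smchd1 partners and G2 and M phase, with the number tested in the legend and Smchd1 left out for scale. Most condensin genes lie in the upper right beside the G2 and M phase genes, and Smc1b stands far from the rest. Positive in both lines were 7 of 8 and 11 of 14, against 38.1% of all tested genes.

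In the SMC5/6 complex 6 of 8 genes were positive, with a median blocked log2 fold change of 0.08 and a range of -0.28 (Fam178a, also known as Slf2) to 0.32 (Ndnl2, also known as Nsmce3), both named after their values were seen. Of the 3 genes of the Rad50 complex, whose RAD50 subunit has an SMC-like fold, 2 were positive, with a median of 0.03. Rad50 had 1798 and 1797 counts in del/del libraries A and B against 1825 and 2063 in del/fl libraries A and B, a blocked log2 fold change of -0.15 (SE 0.07), and Mre11a was at 0.03 (SE 0.08). Of 4 tested DNA-binding architectural factors 1 was positive, Ctcf at 0.00, and the median was -0.11. The zinc finger gene Maz was at -0.06 (SE 0.09). Ctcfl, the germ cell paralog of Ctcf, had 0 counts in all 4 libraries. The gene of the SMCHD1-binding protein LRIF1, listed as 4933421E11Rik, had 751 and 895 counts in del/del libraries against 691 and 1023 in del/fl libraries (blocked log2 fold change -0.08, SE 0.09). With it in a list of 4 tested genes were the MORC proteins, which share the GHKL kind of ATPase with SMCHD1, and none of the 4 was positive. Morc2a was at -0.13 (SE 0.07), Morc3 at -0.07 (SE 0.07) and Morc4, named after its value was seen, at -0.59 (SE 0.14, edgeR adjusted p = 0.070). Morc4, an X-linked gene, had 490 and 496 counts in del/del libraries against 744 and 700 in del/fl libraries, without overlap.

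The genes whose profile over the 4 libraries was nearest to that of Smchd1 were Emp1, Itga3, Clcf1, Mfsd2a and Hmga2, by Euclidean distance between mean-centred log2 CPM values among the 10656 genes averaging 3 or more in log2 CPM in the fit without the block. Emp1, an epithelial membrane protein gene, had 104 and 130 counts in del/del libraries A and B against 396 and 601 in del/fl libraries A and B, a distance of 0.277. Itga3, an integrin alpha subunit gene, had 188 and 151 counts in del/del libraries against 604 and 617 in del/fl libraries, a distance of 0.373. Clcf1, a cytokine gene, had 671 and 774 counts in del/del libraries against 1704 and 2258 in del/fl libraries, a distance of 0.487. All 5 nearest genes, Mfsd2a and Hmga2 included, were lower in del/del cells without overlap, as were 22.8% of all tested genes. Choosing genes by likeness to Smchd1 favours this. Mfsd2a, a lipid transporter gene, had 314 and 325 counts in del/del libraries against 1237 and 897 in del/fl libraries (distance 0.590). Hmga2, a chromatin protein gene, had 824 and 1203 counts in del/del libraries against 2273 and 2992 in del/fl libraries (distance 0.615). Their blocked log2 fold changes ran from -2.11 to -1.43, with edgeR adjusted p of 0.0194 to 0.0266 with the block and none under 0.05 without it. They were chosen for this likeness, which is a description over 4 libraries.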

How the data were processed

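The data were 4 RNA libraries. Per the file headers, the deposited table holds whole-number counts per gene, with 12 value columns. Column names show a genotype and a line number but not a titled sample. The 4 columns of all reads, as many per genotype as samples, were used and matched to a genotype. The other 8, which divide reads by parental genome and would give more columns than samples, were not used, and the planned allele-specific tests were not run. Lines A and B are the 2 numbers shared by column names of both genotypes. The submitters' processing notes list mm10, bcl2fastq, TopHat2 2.0.12 and edgeR. Counting method and use of strand: not given in the sources used here. By its design text the series has 3 lines per genotype, and any other line was not analysed here.

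Tests were run in R 4.3.3 with edgeR 4.0.16 (quasi-likelihood fit, TMM scaling, filterByExpr), adjusting p by Benjamini-Hochberg over 14860 genes at 0.05, with genotype alone as the term. CPM use TMM-scaled library sizes. Line as a block was the other design. Per the labels' protocols each line was divided, so libraries with the same number are paired. Their deviations from the group means had r = 0.716 across genes (no independent replicates). The lines also separated on principal component 1, with 58.1% of variance. Scores on it were -53.2 for del/del and -12.2 for del/fl in line A, and 23.5 and 41.9 in line B. The genotypes thus differed on this component as well, in the same direction in both lines. Within a genotype, libraries differed beyond sampling noise, with a chi-square per degree of freedom of 74.8 in del/del and 45.3 in del/fl cells. Other alternatives were DESeq2 1.42.0 with and without the block, RLE scaling, no low-count filter, and each library left out. Transcripts came from GENCODE M21 and promoters from RefSeq.

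Named were the 10 genes, other list genes that passed in either edgeR fit or else up to 2 per list with the highest mean count, the 5 genes nearest the profile of Smchd1, and those said to be named after their values were seen. The genes and lists were chosen with earlier results of these data known.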

Additional observations from a re-analysis of the deposited data

Results flagged for a closer look

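Of the 10 genes, 2 moved in opposite directions in lines A and B. Smc1a differed by -0.05 in line A and 0.09 in line B (log2 CPM, del/del minus del/fl), a gap between lines of 0.133. Ctcf differed by -0.04 in A and by 0.05 in B, giving a gap of 0.0913. For 3 gene lists the median had opposite signs in the lines. The 13 genes for cohesin loading, release and protection had a median of -0.02 in A and of 0.28 in B, giving a gap of 0.298. The 12 S phase genes had medians of -0.01 in A and 0.29 in B, giving a gap of 0.302. The 10 neural stem cell markers had medians of -0.08 in A and 0.06 in B, giving a gap of 0.150. With 1 library of each genotype per line, the difference between lines was not tested for any of them.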

How the results depend on the processing

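With genotype alone as the term, edgeR called 0 genes, 0 of the 10 among them, and so did RLE scaling, no low-count filter and each fit without 1 library. With the line as a replicate block it called 832 (551 higher, 281 lower), DESeq2 called 378 (263 higher, 115 lower) and DESeq2 with the replicate block 1199 (772 higher, 427 lower). Among the 10 genes, 1 was called under each of these 3, Smchd1. The block changed no other call among the 10 genes. The log2 fold change of Smchd1 was -1.96 with the block and -1.97 with DESeq2, and -2.08 to -1.87 without 1 library. Ctcf turned to -0.00223 under DESeq2 with the block and -0.00453 with no filter. Estimates without 1 library had no block, so each set 1 line of a genotype against both lines of the other. Compared within lines (log2 CPM), Smc3 (-0.20 in A, -0.06 in B), Smc4 (0.08, 0.23) and Smc6 (-0.15, -0.05) each kept 1 sign. Smc1a and Ctcf did not. Leaving out each library in turn gave ranges that crossed 0 for Smc1a (-0.176 to 0.188), Smc3 (-0.290 to 0.00670), Smc4 (-0.0173 to 0.299), Smc6 (-0.291 to 0.0571), Ctcf (-0.148 to 0.124) and the log2 Smc2 to Smc4 ratio (-0.0361 to 0.0880). Smc2 (0.06 to 0.28), Smc5 (0.01 to 0.28), Rad21 (0.12 to 0.25), Nipbl (-0.324 to -0.00298) and the other 4 ratios kept their sign, but Smc2 and Smc5 were lowest without del/del library B and Nipbl was nearest 0 without del/fl library B. The cause was not tested. The planned allele-specific fits and their alternatives were not run. With 2 libraries per genotype, changes in the 9 genes smaller than their intervals could not be detected.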
